A study of Homo sapiens with 18 samples.

Results

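A set of 10 genes, none of them a classic B-cell marker, stood far higher in a Hodgkin lymphoma line that makes PAX5 than in the parent line. Here they are described in all 6 groups of the study. The genes are ICA1L, ENAH, UTRN, C1QTNF9B, SCRT1, CA2, FGF9, MAK, NSMF and ABCA2, 10 of the 18417 genes measured. They were chosen by their values in L428-PAX5+M against L428+M, so their difference in that pair of groups is given as a description and carries no test. The rule of choice did not use their signal with 5-aza-2'-deoxycytidine and trichostatin A, or in the Burkitt lines. The set was, however, drawn up with earlier results of these data known.

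Total RNA of 18 samples was measured on whole-transcript arrays, with 3 arrays in each group, and values are log2 signal. L428-PAX5+MAT is the Hodgkin lymphoma line L428 in the form that makes PAX5 when given mifepristone, treated with 0.25 nM mifepristone for 2 days, and for 3 further days with 3 µM of the DNA methylation inhibitor 5-aza-2'-deoxycytidine (here 5-aza-dC), joined in the final 24 hours by 640 nM trichostatin A (TSA), an inhibitor of histone deacetylases. L428-PAX5+M is the same line with 0.25 nM mifepristone only, for 5 days. L428+MAT and L428+M are the parent line under the same 2 schedules, so that mifepristone is common to all 4 L428 groups. Raji and Namalwa are Burkitt lymphoma lines, tumours of mature B cells, and no treatment is labelled for them, so line and treatment cannot be told apart where they are set against L428. The medium of L428-PAX5 held an extra 25 mM HEPES, and L428-PAX5 without mifepristone was not analysed here, so PAX5, the medium and any other difference between the engineered and the parent line cannot be told apart. All 3 L428-PAX5+MAT samples carry the name L425-PAX5 in their titles but L428-PAX5 as cell line, and the cell line entry was used. Nothing in the labels tells if the 3 samples of a group came from separate cultures, so the spread behind each p-value is that between these samples and may be technical only.

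PAX5 itself had 12.84, 12.85 and 12.67 in L428-PAX5+MAT and 12.70, 12.81 and 12.68 in L428-PAX5+M, against 7.08, 7.14 and 7.28 in L428+MAT and 8.64, 7.14 and 6.70 in L428+M. Every L428-PAX5 array was thus above every L428 array, and above the 10.77 to 11.31 of the Burkitt lines, while replicate 1 of L428+M was the highest of the L428 arrays. Of 7 B-cell markers, only PAX5 lay above the median of all values (7.18) in either L428-PAX5 group, against 7 of 7 in Raji and 6 of 7 in Namalwa. All 6 Hodgkin cell markers were above it in all 4 L428 groups, but their median was lower in L428-PAX5+MAT, at 9.42, against 11.03 in L428-PAX5+M, 10.93 in L428+MAT and 11.04 in L428+M, and the part of this shift in the results was not tested. TNFRSF8, or CD30, was the lowest of them in L428-PAX5+MAT at 7.98. Over the 6 groups the median of 5 T or NK cell markers was 5.45 to 5.63, with at most 1 above the median of all values, that of 4 myeloid markers 5.25 to 5.52, with 0 above it, and that of 5 fibroblast markers 6.09 to 6.30, with 1 above it, COL1A1. Arrays of a group correlated across genes at 0.963 (L428-PAX5+MAT replicates 2 and 3) to 0.996 (Raji replicates 1 and 2), and no arrays were identical.

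PAX5 is the transcription factor that commits precursor cells to the B lineage: it switches on genes of B-cell identity and holds down genes of other lineages. In classical Hodgkin lymphoma cells much of the B-cell programme is silent although the tumour derives from B cells. The 10 genes have roles elsewhere. SCRT1 is a transcriptional repressor of neurons, NSMF carries signals from synaptic NMDA receptors to the nucleus, ENAH and UTRN tie proteins to actin, FGF9 and C1QTNF9B are secreted, and CA2, MAK, ABCA2 and ICA1L are an enzyme, a kinase, a transporter and a membrane-shaping protein.

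The label of the set as non-lymphoid held for part of it only. NSMF in Raji lay within the range of both L428-PAX5 groups, and ENAH, UTRN, FGF9 and ABCA2 were high in Namalwa, a B-cell tumour line. In Raji 3 of the 10 genes, and in Namalwa 6 of 10, had a mean above the median of all values, against 10 of 10 in each L428-PAX5 group and 4 of 10 in each L428 group. The median place of the genes among all genes was the 89.6th percentile in L428-PAX5+MAT, the 86.2nd in L428-PAX5+M, the 41.6th in L428+MAT, the 40.5th in L428+M, the 36.9th in Raji and the 55.7th in Namalwa. The genes are therefore called here only the 10 genes. They were chosen by a difference between the lines, and the part of PAX5 in it was not tested.

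Promoter sequences are shown because 5-aza-dC inhibits the methylation of DNA at CG pairs and because PAX5 binds DNA. Methylation was not measured here, and a count of CG pairs does not tell if they are methylated. RefSeq promoter windows of GRCh38.p14 (250 bases before to 50 after a gene start) were matched for 6 of the 10 genes, with 9 starts in all; CA2, SCRT1, FGF9 and C1QTNF9B are only named. CG pairs in the 300 bases numbered 43 for ENAH, 28 and 45 for the starts of ICA1L, 19 for MAK, 30 and 7 for those of UTRN, 16 and 66 for those of ABCA2 and 38 for NSMF, against a median of 14 over 34796 windows. For ENAH and MAK the 250 bases before the start are shown with every CG in capitals. These stretches hold 36 and 15 of the 43 and 19 CG pairs. They lie at chr1:225653124-225653373 (minus strand) and chr6:10838540-10838789 (minus strand), read 5′ to 3′.
ENAH: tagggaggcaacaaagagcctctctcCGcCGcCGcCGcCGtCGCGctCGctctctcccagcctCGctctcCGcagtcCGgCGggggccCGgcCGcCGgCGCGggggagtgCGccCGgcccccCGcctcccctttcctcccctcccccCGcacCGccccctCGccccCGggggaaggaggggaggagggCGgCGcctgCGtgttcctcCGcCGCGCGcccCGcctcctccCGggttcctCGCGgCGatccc
MAK: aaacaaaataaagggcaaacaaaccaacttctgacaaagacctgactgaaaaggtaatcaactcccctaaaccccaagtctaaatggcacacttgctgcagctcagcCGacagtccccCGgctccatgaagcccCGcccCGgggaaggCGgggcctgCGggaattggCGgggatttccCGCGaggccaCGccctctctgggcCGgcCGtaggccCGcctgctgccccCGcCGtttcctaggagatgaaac

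Both strands of the 9 windows were also searched for GCGTGAC, the core of the site bound by the paired domain of PAX5. It was found once, at a start of ABCA2, and 2.51% of all 34796 windows hold it. The match is in capitals in the 250 bases at chr9:137028238-137028487 (minus strand), where it begins 235 bases before the start. NSMF held TGACGTCA, the cyclic AMP response element, 2 times, 79 and 29 bases before its start at chr9:137459335-137459584 (minus strand); 1.84% of windows hold that element, which was searched for after the sequence had been seen. The 2 motifs share the letters TGAC, and no match of one overlapped a match of the other. A match of letters is no binding site, and a window without them tells nothing of the factor.
ABCA2: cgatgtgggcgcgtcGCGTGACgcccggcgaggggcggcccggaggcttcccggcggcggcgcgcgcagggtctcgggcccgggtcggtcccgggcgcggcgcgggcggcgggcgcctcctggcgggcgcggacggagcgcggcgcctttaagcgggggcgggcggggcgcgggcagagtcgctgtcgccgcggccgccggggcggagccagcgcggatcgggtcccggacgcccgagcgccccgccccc
NSMF: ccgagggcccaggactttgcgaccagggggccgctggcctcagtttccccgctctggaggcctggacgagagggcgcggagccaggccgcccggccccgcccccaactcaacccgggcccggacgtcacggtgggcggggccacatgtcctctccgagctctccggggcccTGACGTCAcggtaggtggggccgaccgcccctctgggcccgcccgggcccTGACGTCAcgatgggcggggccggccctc

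In L428-PAX5+M against L428+M, the pair of groups used for the choice, the log2 differences of the genes ran from 2.24 (NSMF) to 4.29 (ICA1L), with a median of 3.29 against -0.028 over all genes. They ranked between place 3 (ICA1L) and place 47 (NSMF) by size of rise, and 37 genes that are not in the set ranked above NSMF. Just inside the range lay NSMF at 2.24, and just outside it NFIB at 2.22 and ENTR1 at 2.21. All 10 had every L428-PAX5+M array above every L428+M array. By another measure, the limma call, 9.72% of all genes were higher in this pair of groups, and nothing is read from either value.

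With 5-aza-dC and TSA the genes were higher in the PAX5 line again. All 10 rose in L428-PAX5+MAT against L428+MAT (limma, adjusted p from 1.75e-08 to 2.57e-05), where 14.3% of all genes were called higher and 17.7% lower. Their log2 changes ran from 2.13 (NSMF) to 4.09 (C1QTNF9B), with a median of 2.55, while the median over all genes was -0.0031; 0 of the 10 fell, at an adjusted or an unadjusted p below 0.05. In each of the 10, all 3 L428-PAX5+MAT arrays lay above all 3 L428+MAT arrays. The share of all genes with arrays so separated is not given, here or in other comparisons, so such separations are description only. The rule of choice did not use these 6 arrays, but the set was drawn up with earlier results of these data known. The lines are also the same, so the change measures the same lines again under other conditions. In RNA of whole cultures, a change in every cell and a change in the share of cells that express a gene cannot be told apart. Under each of 14 other settings, the omission of each array included, 10 of 10 stayed called, with changes from 1.70 (ICA1L) to 4.48 (C1QTNF9B) and adjusted p of at most 0.00295. Of the 37 other genes that ranked above NSMF, 31 rose, 2 fell and 4 were not called, with a median change of 1.37.

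**Figure D1:**
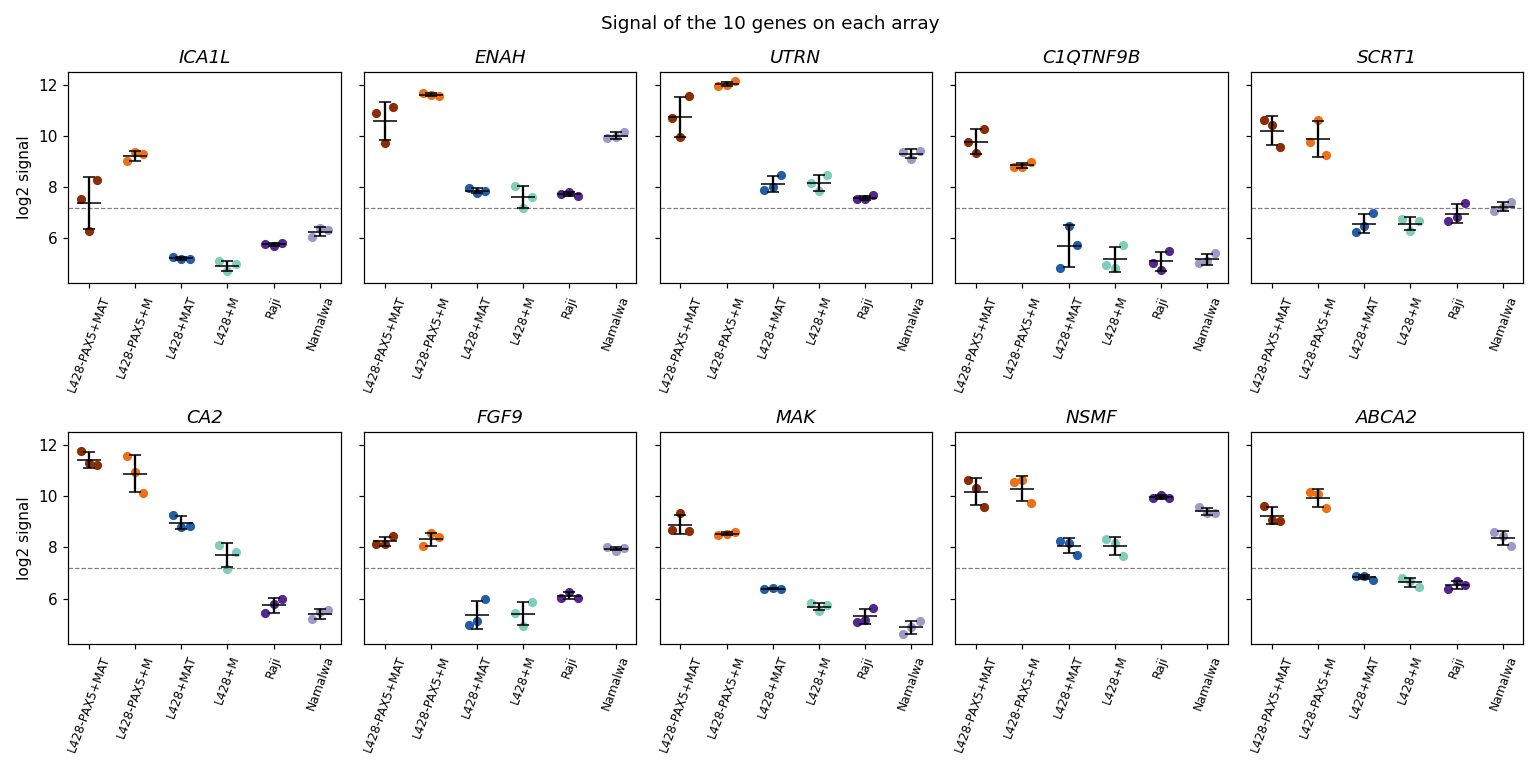
Log2 signal of the 10 genes (vertical axis) on each array (points) of the 6 groups, with the group mean and SD over 3 arrays (bars). The dashed line is the median of all values, 7.18. Every L428-PAX5 array lies above every L428 array for each gene, and NSMF stands out by its level of 9.91 to 10.05 in Raji.

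**Figure D2:**
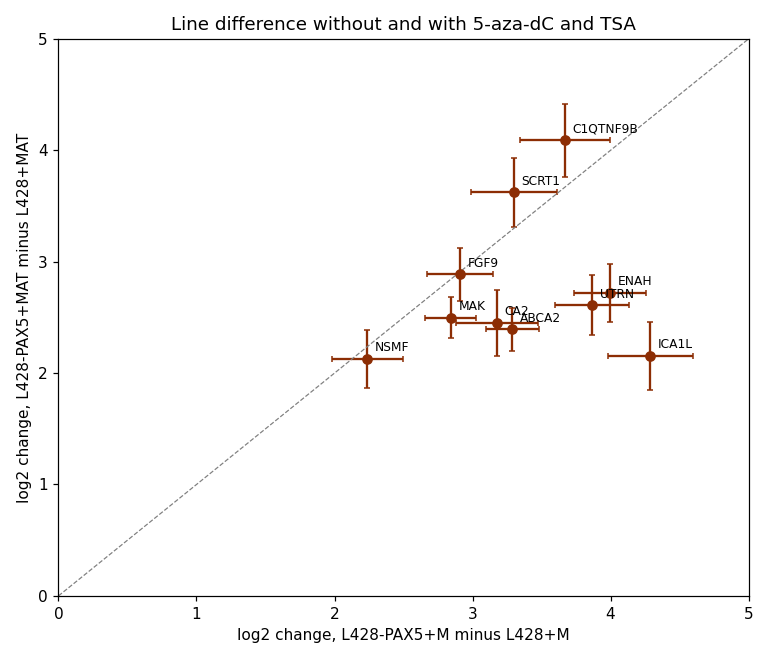
Log2 difference between the PAX5 line and L428 with 5-aza-dC and TSA (vertical axis) against the same difference without them (horizontal axis, the values used for the choice) for the 10 genes, with SE as bars; the dashed line marks equal differences. C1QTNF9B and SCRT1 lie above the line and ICA1L farthest below it, at 2.15 with the drugs and 4.29 without.

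SCRT1 and NSMF are known from neurons. SCRT1, Scratch 1, is a zinc-finger repressor of the Snail superfamily found in developing neurons. It had 10.63, 10.42 and 9.55 in L428-PAX5+MAT, against 6.24, 6.49 and 6.996 in L428+MAT. With mifepristone only, the values were 9.77, 10.61 and 9.24 in L428-PAX5+M, against 6.76, 6.27 and 6.69 in L428+M. Raji had 6.67, 6.82 and 7.39 and Namalwa 7.08, 7.23 and 7.41. The PAX5 line was thus apart from the other 4 groups, which lay close together and partly overlapped. SCRT1 rose in L428-PAX5+MAT against L428+MAT by 3.62 ± 0.31 (SE; adjusted p = 9.10e-08, limma), or 12.3-fold. A dimmer probe set of SCRT1 had 9.71, 9.91 and 8.65 in L428-PAX5+MAT, against 5.63, 5.76 and 5.96 in L428+MAT, and so ran the same way.

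NSMF, also called Jacob, links NMDA receptor activity to gene expression and bears on the migration of GnRH neurons. L428-PAX5+MAT had 10.64, 10.31 and 9.59, against 8.27, 8.18 and 7.72 in L428+MAT. L428-PAX5+M had 10.54, 10.63 and 9.73, against 8.33, 8.18 and 7.68 in L428+M. The Burkitt lines had 9.94, 10.05 and 9.91 (Raji) and 9.58, 9.32 and 9.35 (Namalwa). Raji overlapped both L428-PAX5 groups, Namalwa lay just below Raji, and L428 was lowest with or without drugs. NSMF rose in L428-PAX5+MAT against L428+MAT by 2.13 ± 0.26 (adjusted p = 4.17e-06), the smallest rise of the 10. Against Raji, L428-PAX5+MAT differed by 0.21 ± 0.26 (adjusted p = 0.528), but by 0.63 with array weights, which called it higher (adjusted p = 2.19e-04). L428+MAT was lower than Raji, with a change of -1.91 ± 0.26 (adjusted p = 5.80e-06), and lower than Namalwa, with a change of -1.36 ± 0.26 (adjusted p = 2.54e-04). Over the 18 arrays, PAX5 itself was among the 3 genes whose signal followed NSMF most closely (Pearson r = 0.94, with no test). These arrays fall into 6 groups, and 6 of them also served to choose NSMF for its rise in the PAX5 line. Above PAX5 in likeness stood SDHA (0.97), a subunit of succinate dehydrogenase, and HES1 (0.96), a Notch target. HES1 averaged 9.56, 9.34, 6.70, 6.43, 9.03 and 8.62 in L428-PAX5+MAT, L428-PAX5+M, L428+MAT, L428+M, Raji and Namalwa.

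Neuronal markers were set beside SCRT1 and NSMF. The median of 5 such genes was 6.75 in L428-PAX5+MAT and 6.54 in L428+MAT, 6.23 in L428-PAX5+M and 6.31 in L428+M, and 5.64 in Raji and 5.33 in Namalwa. Of these markers SNAP25, a synaptic fusion protein, was highest in the PAX5 line, at 8.40 with the drugs and 6.85 without. STMN2, a growth-cone protein, was highest in the parent line, at 8.76 with the drugs and 8.28 without. Above the median of all values (7.18) stood 1 marker in L428-PAX5+MAT and 0 in L428-PAX5+M. The parent line had 2 above it under each schedule, and Raji and Namalwa had 0. STMN2 was thus lower in the PAX5 line, opposite to SCRT1 and NSMF. The part of these markers in the rise of SCRT1 and NSMF was not tested.

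ENAH and UTRN serve the cytoskeleton. ENAH, or Mena, is an Ena/VASP protein that keeps actin filaments growing at their tips. It had 10.91, 9.71 and 11.11 in L428-PAX5+MAT, against 7.97, 7.76 and 7.84 in L428+MAT. In L428-PAX5+M it had 11.67, 11.60 and 11.55, against 8.03, 7.20 and 7.61 in L428+M. Raji had 7.72, 7.82 and 7.66, while Namalwa had 9.92, 9.96 and 10.16. Raji therefore overlapped L428, and Namalwa lay within the range of L428-PAX5+MAT. ENAH rose in L428-PAX5+MAT against L428+MAT by 2.72 ± 0.26 (adjusted p = 2.78e-07). L428-PAX5+MAT exceeded Namalwa by 0.56 ± 0.26, which did not pass (adjusted p = 0.0863) but passed without replicate 2 of L428-PAX5+MAT (0.995, adjusted p = 2.16e-04).

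UTRN, utrophin, is the close relative of dystrophin that joins actin to the dystroglycan complex in the membrane. L428-PAX5+MAT had 10.68, 9.97 and 11.54, against 7.88, 8.02 and 8.47 in L428+MAT. L428-PAX5+M had 11.97, 12.004 and 12.13, against 8.18, 7.85 and 8.47 in L428+M. Raji had 7.54, 7.54 and 7.69, and Namalwa 9.38, 9.11 and 9.43. The order was L428-PAX5+M, L428-PAX5+MAT, Namalwa, the 2 overlapping L428 groups and Raji, with no overlap elsewhere. UTRN rose in L428-PAX5+MAT against L428+MAT by 2.61 ± 0.27 (adjusted p = 7.33e-07).

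The secreted proteins FGF9 and C1QTNF9B lie on chromosome 13 with 3 measured genes between them. FGF9 is a fibroblast growth factor active in lung, gonad and skeletal development. Its values were 8.12, 8.13 and 8.45 in L428-PAX5+MAT, against 4.96, 5.11 and 5.98 in L428+MAT. They were 8.05, 8.54 and 8.39 in L428-PAX5+M, against 5.44, 4.94 and 5.86 in L428+M. Raji had 6.02, 6.27 and 6.03 and Namalwa 8.02, 7.88 and 7.96. Namalwa thus came close to the PAX5 line, Raji lay between, and L428 was lowest. With drugs, FGF9 rose in the PAX5 line against L428 by 2.89 ± 0.24 (adjusted p = 5.66e-08), and the difference from Namalwa was 0.28 ± 0.24 (adjusted p = 0.371).

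C1QTNF9B belongs to the C1q/TNF-related family of secreted proteins that resemble adiponectin. It had 9.75, 9.32 and 10.27 in L428-PAX5+MAT, against 4.85, 6.48 and 5.74 in L428+MAT. It had 8.80, 8.78 and 8.98 in L428-PAX5+M, against 4.97, 4.84 and 5.75 in L428+M. The Burkitt values were 5.02, 4.78 and 5.49 in Raji and 5.03, 5.10 and 5.44 in Namalwa. All 4 groups without induced PAX5 overlapped at a low level. With drugs, C1QTNF9B rose in the PAX5 line against L428 by 4.09 ± 0.33 (adjusted p = 4.15e-08), or 17.0-fold, the largest rise of the 10. C1QTNF9, its near-identical neighbour, rose by 2.18 ± 0.23 (adjusted p = 7.51e-07); the copies may share probes, so the part of each is uncertain. The signal of SLITRK6, a neuronal membrane protein, followed C1QTNF9B most closely over the 18 arrays (r = 0.98). Its means were 7.39 and 7.16 in L428-PAX5+MAT and L428-PAX5+M and 4.09 to 4.52 in the other 4 groups. SLITRK6 ranked at place 25 by rise in the pair of groups used for the choice. Those arrays are among the 18, which by itself raises r between a chosen gene and genes that rise alike. The same holds for the similar genes named below.

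CA2, carbonic anhydrase 2, turns carbon dioxide into bicarbonate in red cells, kidney and osteoclasts. L428-PAX5+MAT had 11.78, 11.28 and 11.20, against 9.28, 8.79 and 8.83 in L428+MAT. L428-PAX5+M had 11.57, 10.93 and 10.12, against 8.10, 7.17 and 7.82 in L428+M. Raji had 5.42, 5.79 and 5.99, and Namalwa 5.20, 5.49 and 5.56. CA2 was thus lowest in the Burkitt lines, which express PAX5 too, higher in L428 and highest in the L428-PAX5 line. The rise of CA2 in L428-PAX5+MAT against L428+MAT was 2.45 ± 0.29 (adjusted p = 4.10e-06). L428+MAT in turn exceeded Raji by 3.23 ± 0.29 (adjusted p = 3.36e-08) and Namalwa by 3.55 ± 0.29 (adjusted p = 8.91e-09). TAAR6, a trace amine receptor, followed CA2 most closely (r = 0.99), with means of 8.52 in L428-PAX5+MAT, 8.11 in L428-PAX5+M, 6.79 in L428+MAT, 5.92 in L428+M, 4.76 in Raji and 4.38 in Namalwa.

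MAK, the male germ cell-associated kinase, controls the length of cilia and is needed in photoreceptors. It had 8.70, 9.34 and 8.64 in L428-PAX5+MAT, against 6.38, 6.41 and 6.39 in L428+MAT. It had 8.47, 8.52 and 8.60 in L428-PAX5+M, against 5.82, 5.52 and 5.73 in L428+M. Raji had 5.10, 5.17 and 5.65 and Namalwa 4.62, 4.88 and 5.14. MAK followed the order of CA2, although L428+M and Raji overlapped. The rise of MAK in L428-PAX5+MAT against L428+MAT was 2.50 ± 0.18 (adjusted p = 1.75e-08). CCNYL1, a cyclin Y relative, had the most similar signal (r = 0.98).

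ABCA2 is an ABC transporter that moves lipids in lysosomes and is abundant in myelin-forming cells. L428-PAX5+MAT had 9.62, 9.06 and 9.02, against 6.88, 6.90 and 6.74 in L428+MAT. L428-PAX5+M had 10.15, 10.08 and 9.53, against 6.80, 6.67 and 6.44 in L428+M. Raji had 6.36, 6.69 and 6.55, and Namalwa 8.59, 8.46 and 8.04. As with ENAH, Raji was level with L428 and Namalwa stood far above it. ABCA2 rose in L428-PAX5+MAT against L428+MAT by 2.39 ± 0.19 (adjusted p = 4.69e-08). ABCA2 and ENAH were the most alike pair of the set over the 18 arrays (r = 0.97) and NSMF and CA2 the least (r = 0.25). All of the set were chosen for a rise between L428-PAX5+M and L428+M, which by itself raises r between them.

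ICA1L, a relative of the islet autoantigen ICA1, is a BAR-domain protein that binds and bends membranes. It had 7.55, 6.28 and 8.28 in L428-PAX5+MAT, against 5.27, 5.21 and 5.18 in L428+MAT. It had 9.003, 9.37 and 9.29 in L428-PAX5+M, against 5.10, 4.72 and 4.98 in L428+M. Raji had 5.79, 5.68 and 5.82, while Namalwa had 6.06, 6.41 and 6.32. The L428-PAX5+MAT arrays spread widely, and replicate 2 fell among the Namalwa arrays. The rise of ICA1L in L428-PAX5+MAT against L428+MAT was 2.15 ± 0.31 (adjusted p = 2.57e-05). Against Namalwa the PAX5 line was higher by 1.11 ± 0.31 (adjusted p = 0.00586), which ended when the fit held those 2 groups alone (adjusted p = 0.0607). PMS2, a mismatch repair gene, was most similar over the 18 arrays (r = 0.95).

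Changes with 5-aza-dC and TSA in the PAX5 line ran in both directions. In L428-PAX5+MAT against L428-PAX5+M, 1 of the 10 genes was called higher, where 14.2% of all genes were, and 4 were called lower, where 19.4% were. ICA1L fell (-1.85 ± 0.31, adjusted p = 1.32e-04), UTRN fell (-1.30 ± 0.27, adjusted p = 9.73e-04) and ENAH fell (-1.03 ± 0.26, adjusted p = 0.0044). In ICA1L, ENAH and UTRN all 3 L428-PAX5+MAT arrays lay below all 3 L428-PAX5+M arrays. In C1QTNF9B and MAK all 3 lay above. ABCA2 fell (-0.69 ± 0.19, adjusted p = 0.00957) with overlapping arrays, and its call ended under quantile normalization (adjusted p = 0.0584), in a fit of the 2 groups alone (0.051) and without replicate 1 of L428-PAX5+M (0.0565). C1QTNF9B rose by 0.93 ± 0.33 (adjusted p = 0.0357), and lost its call without replicate 1, 2 or 3 of L428-PAX5+M (adjusted p = 0.0896, 0.0895 and 0.0545) or replicate 1 or 3 of L428-PAX5+MAT (0.0706 and 0.153). SCRT1, CA2, FGF9, MAK and NSMF were not called, with changes from -0.12 to 0.55. CA2, at 0.55, ran from 0.17 to 0.895 with each array left out in turn, and was called without replicate 1 of L428-PAX5+M (adjusted p = 0.0251), under quantile normalization (0.81, adjusted p = 0.0333) and with array weights (0.697, adjusted p = 0.00704). SCRT1 was called with array weights (0.54, adjusted p = 0.0251) and MAK under quantile normalization (0.59, adjusted p = 0.0283). L428-PAX5+M served to choose the genes for high values there, which by itself makes such differences lower.

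In L428+MAT against L428+M, 2 of the 10 genes were called higher and 0 lower, where 4.21% and 0.635% of all genes were; 0 were lower at an unadjusted p below 0.05 too. CA2 rose by 1.27 ± 0.29 (adjusted p = 0.0136) and MAK by 0.70 ± 0.18 (adjusted p = 0.0321), each with no overlap between the groups. The other 8, of which ICA1L did not overlap between the groups either, were not called, with changes from -0.07 to 0.51. The highest of these, C1QTNF9B, ran from 0.11 to 0.93 with each array left out in turn, and was called with array weights (1.27, adjusted p = 0.0022). Neither call was firm: that of CA2 ended without replicate 2 of L428+M (adjusted p = 0.0948) or replicate 1 of L428+MAT (0.0735), and that of MAK without any of the 6 arrays (0.054 to 0.143), with array medians subtracted (0.0603) or with quantile normalization (0.0634). L428+M served to choose the genes for low values there, which by itself makes such differences higher. A block on replicate number gave 1592 called genes in place of 892 here, CA2 and MAK among them. Epithelial markers moved with the drugs in both lines, with medians of 8.05 in L428-PAX5+MAT against 7.0 in L428-PAX5+M, and 8.12 in L428+MAT against 6.83 in L428+M; EPCAM was low at 4.42 to 5.01 in these groups. Their part in the changes of the 10 genes was not tested.

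**Figure D3:**
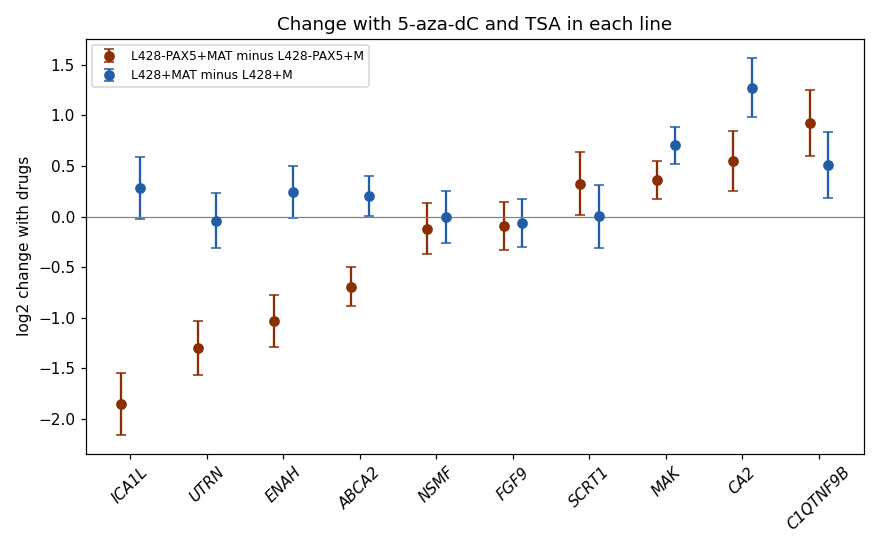
Log2 change with 5-aza-dC and TSA (vertical axis, with SE) of each gene in the PAX5 line and in L428, ordered by the change in the PAX5 line. ICA1L, UTRN, ENAH and ABCA2 lie between -1.85 and -0.69 in the PAX5 line, while in L428 these 4 lie between -0.04 and 0.29. Both groups without the drugs served to choose the genes. That by itself makes changes lower in the PAX5 line and higher in L428, and the difference between the lines was not tested.

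Set against the Burkitt lines, the PAX5 line with drugs was higher for most of the genes. They were chosen for high values in the same line without drugs, which by itself makes such differences higher. The shares of all genes given beside them are for genes not so chosen. In L428-PAX5+MAT against Raji, 9 of 10 were called higher and 0 lower, where 22.1% and 24.5% of all genes were, and NSMF was not called; 0 were lower at an unadjusted p below 0.05. The changes of the 9 ran from 1.61 (ICA1L) to 5.68 (CA2, 51.4-fold). In L428-PAX5+MAT against Namalwa, 8 of 10 were called higher and 0 lower, where 21.3% and 24.1% of all genes were, with ENAH and FGF9 not called; 0 were lower at an unadjusted p below 0.05. CA2 led again with a change of 6.0 ± 0.29 (adjusted p = 5.31e-12), followed by C1QTNF9B at 4.59 and MAK at 4.01. NSMF exceeded Namalwa by 0.77 ± 0.26 (adjusted p = 0.0198), and its call ended without replicate 2 or 3 of Namalwa (adjusted p = 0.0613 and 0.0546) or replicate 1 or 2 of L428-PAX5+MAT (0.124 and 0.0636).

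In the parent line genes were called in both directions. The genes were chosen for low values in this line without drugs, which by itself makes such differences lower. In L428+MAT against Raji, CA2 and MAK were the 2 genes called higher and NSMF and FGF9 the 2 called lower. These shares were close to those of all genes, 18.8% and 19.0%, and nothing is read from them. FGF9 had a change of -0.76 ± 0.24 (adjusted p = 0.0168), and its call ended without replicate 2 of Raji (adjusted p = 0.0649) or replicate 1 or 2 of L428+MAT (0.102 and 0.0781). MAK was higher by 1.09 ± 0.18 (adjusted p = 9.35e-05). With array weights ICA1L was called lower than Raji (adjusted p = 0.00555), and UTRN (0.00389) and ABCA2 (0.0214) higher. A fit of the 2 groups alone also called ICA1L lower (adjusted p = 0.00574) and UTRN higher (0.0298). In L428+MAT against Namalwa, CA2 and MAK were again the 2 called higher, where 18.3% of all genes were, and 6 were called lower, where 20.2% were. These were FGF9 (-2.60), ENAH (-2.16), ABCA2 (-1.53), NSMF (-1.36), UTRN (-1.18) and ICA1L (-1.04), with adjusted p from 3.55e-08 to 0.0104. SCRT1 was not called against Namalwa, but was called lower with array weights (adjusted p = 0.00512) and in a fit of the 2 groups alone (0.0204). C1QTNF9B was not called against Raji (0.59, adjusted p = 0.17) or Namalwa (0.50, adjusted p = 0.258). It passed in both without replicate 1 of L428+MAT (1.01 and 0.92, adjusted p = 0.0132 and 0.0221) and with array weights (2.66e-05 and 1.38e-04).

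The Burkitt lines differed from each other in 4 of the genes. In Raji against Namalwa, ENAH (-2.28 ± 0.26, adjusted p = 1.63e-06), FGF9 (-1.85 ± 0.24, adjusted p = 8.37e-06), ABCA2 (-1.83 ± 0.19, adjusted p = 6.28e-07) and UTRN (-1.72 ± 0.27, adjusted p = 8.25e-05) were lower, where 11.5% of all genes were called lower. All Raji arrays lay below all Namalwa arrays for these 4 and for ICA1L, and above them for NSMF, which is description only. Of the 10 genes 0 were called higher by limma (2 at an unadjusted p below 0.05, MAK and NSMF), where 7.74% of all genes were. NSMF, at 0.55 ± 0.26 (adjusted p = 0.167), passed with the replicate number as a block (adjusted p = 0.0173). SCRT1, C1QTNF9B, CA2, MAK and ICA1L were not called, with changes from -0.50 to 0.43. ICA1L was called lower in a fit of the 2 groups alone (adjusted p = 0.02) and with array weights (0.0164). MAK was called higher with array weights (adjusted p = 0.0286).

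Genes related by function to each of the 10 were measured to see how the families fared in L428-PAX5+MAT against L428+MAT, where 14.3% of all genes were called higher and 17.7% lower. The cilium genes around MAK had 12 of 28 called higher and 2 lower, with a median change of 0.35 against -0.0031 over all genes. Without the drugs, in L428-PAX5+M against L428+M, 5 were higher and 3 lower, where 9.72% and 6.55% of all genes were. In L428-PAX5+MAT against L428-PAX5+M 11 were higher and 2 lower, where 14.2% and 19.4% were. IFT172 rose by 1.26 ± 0.17 (adjusted p = 1.59e-05), IFT80 by 1.04 ± 0.21 (adjusted p = 6.64e-04) and DYNC2H1 by 0.997 ± 0.16 (adjusted p = 1.07e-04), all parts of the transport machinery within cilia. CILK1, a kinase closely related to MAK, fell (-1.16 ± 0.17, adjusted p = 4.48e-05), as did BBS2, with a change of -0.53 ± 0.18 (adjusted p = 0.0331). With each array left out in turn, 10 to 14 of the list were higher and 1 to 4 lower, the 4 without replicate 3 of L428-PAX5+MAT and 1 without replicate 1 or 3 of L428+MAT or replicate 2 of L428-PAX5+MAT.

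The partners of ENAH at actin tips had 2 of 20 called higher and 8 lower (14.3% and 17.7% over all genes), with a median change of -0.35. Without the drugs 2 were higher and 7 lower, where 9.72% and 6.55% of all genes were. APBB1IP, which links Rap1 to integrins and Ena/VASP proteins, fell (-2.46 ± 0.17, adjusted p = 7.62e-09), DIAPH2, a formin (-1.33 ± 0.18, adjusted p = 1.78e-05) and PFN2, a profilin (-1.19 ± 0.16, adjusted p = 1.33e-05). BAIAP2, a membrane-bending partner of ENAH, rose by 1.67 ± 0.30 (adjusted p = 2.81e-04), and DIAPH3 by 0.43 ± 0.13 (adjusted p = 0.0164). The count of 2 higher became 1 without replicate 3 of L428+MAT or replicate 1 of L428-PAX5+MAT.

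In the dystrophin complex around UTRN, 2 of 18 genes were higher and 5 lower (14.3% and 17.7% over all genes), with a median of 0.11. Without the drugs 4 were higher and 1 lower, where 9.72% and 6.55% of all genes were. SNTB1, a syntrophin, fell (-2.01 ± 0.22, adjusted p = 1.27e-06), and the sarcoglycans SGCE and SGCB fell (-1.31 ± 0.24, adjusted p = 2.92e-04, and -1.27 ± 0.20, adjusted p = 7.00e-05). POMT1, which adds mannose to dystroglycan, rose by 1.17 ± 0.19 (adjusted p = 9.43e-05). The count higher was 4 under the replicate block and 4 without replicate 3 of L428-PAX5+MAT.

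FGF ligands, receptors and feedback genes had 5 of 35 higher, 6 lower and a median of 0.08, close to the 14.3% and 17.7% of all genes. ETV5, a target of FGF signalling, rose by 1.95 ± 0.34 (adjusted p = 1.84e-04), SPRY4, a feedback inhibitor, by 1.19 ± 0.28 (adjusted p = 0.00278) and the receptor FGFR3 by 0.98 ± 0.21 (adjusted p = 0.00152). The feedback genes DUSP6 and SPRED1 fell (-2.48 ± 0.22, adjusted p = 1.27e-07, and -1.81 ± 0.18, adjusted p = 3.46e-07), and FGF11 had a change of -1.41 ± 0.22 (adjusted p = 7.99e-05). Feedback genes of the pathway were thus found in both directions.

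The Snail and Scratch list of SCRT1 had 2 of 10 genes higher and 1 lower (14.3% and 17.7% over all genes), with a median of 0.20. SNAI2, or Slug, rose by 3.42 ± 0.30 (adjusted p = 9.84e-08), nearly as far as SCRT1, and SNAI1 by 1.501 ± 0.42 (adjusted p = 0.00972). REST, the repressor of neuronal genes outside neurons, fell (-0.59 ± 0.19, adjusted p = 0.022). The count higher was 4 without replicate 3 of L428-PAX5+MAT and 1 without replicate 2. REST was not called without replicate 1 or 3 of L428+MAT or replicate 2 of L428-PAX5+MAT. Without the drugs, in L428-PAX5+M against L428+M, 0 of the list were higher and 0 lower, where 9.72% and 6.55% of all genes were. SCRT1 differed by 3.30 there, a value used to choose it. In L428-PAX5+MAT against L428-PAX5+M 2 of the list were higher and 1 lower, where 14.2% and 19.4% of all genes were.

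Counts in the families of the other 5 genes stand beside 14.3% of all genes called higher and 17.7% called lower. Carbonic anhydrases and 2 bicarbonate carriers had 3 of 15 higher and 0 lower (also at an unadjusted p below 0.05; median 0.10), led by CA13 (0.87 ± 0.16, adjusted p = 2.69e-04), with 1 higher without replicate 1 or 2 of L428+MAT and 1 lower with the replicate block. C1q/TNF-related proteins had 3 of 19 higher and 2 lower (median -0.02), with CBLN1, a synaptic organiser, at 1.12 ± 0.19 (adjusted p = 1.43e-04) after C1QTNF9. ABCA transporters had 2 of 11 higher and 1 lower (median 0.19): ABCA8 rose by 1.495 ± 0.17 (adjusted p = 1.85e-06), while ABCA1 lost its call without replicate 1 or 2 of L428+MAT or replicate 2 of L428-PAX5+MAT.

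The BAR-domain list of ICA1L had 0 of 16 higher (3 at an unadjusted p below 0.05) and 3 lower, with a median of -0.09. Over all genes 14.3% were higher and 17.7% lower. Of the list, 3 were higher with the replicate block and 1 without replicate 1 or 3 of L428+MAT or replicate 3 of L428-PAX5+MAT. AMPH, amphiphysin, fell (-2.65 ± 0.14, adjusted p = 3.44e-10), and ICA1, the closest relative of ICA1L, fell too (-0.67 ± 0.21, adjusted p = 0.0196). Among partners of NSMF in signalling to the nucleus, 2 of 19 were higher and 3 lower (median 0.02), with CREB1, a factor that binds the cyclic AMP response element, at -1.09 ± 0.19 (adjusted p = 1.72e-04) and GRIN2A, an NMDA receptor subunit, at -1.01 ± 0.13 (adjusted p = 5.91e-06). Its count higher was 0 without replicate 1 of L428+MAT or replicate 1 or 2 of L428-PAX5+MAT, and 1 without replicate 2 or 3 of L428+MAT.

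**Figure D4:**
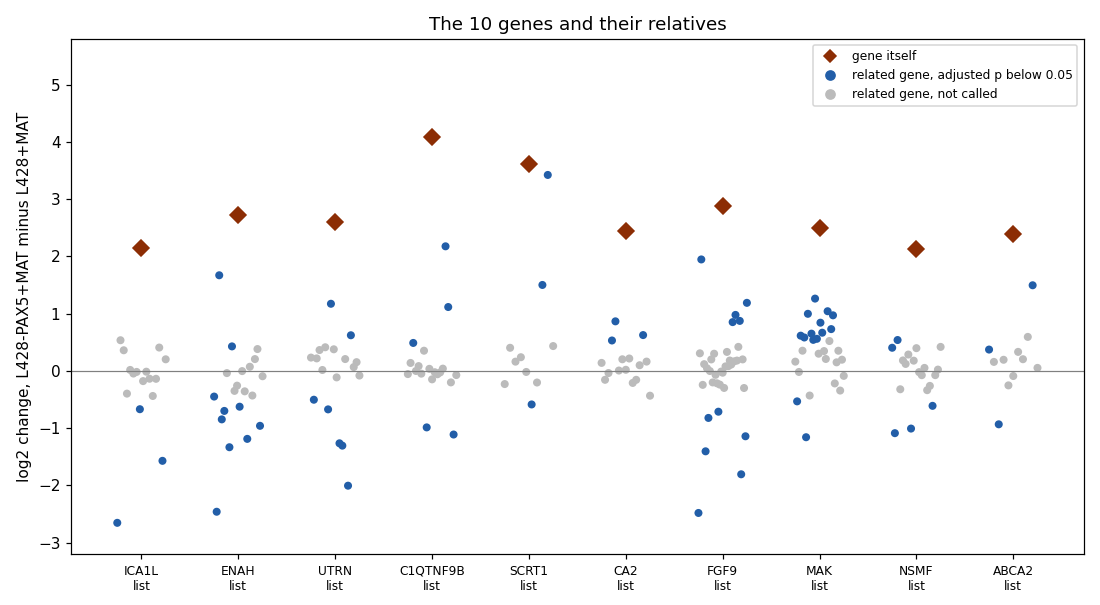
Log2 change in L428-PAX5+MAT minus L428+MAT (vertical axis) of each of the 10 genes (diamonds) and of the genes in its list of relatives (circles, blue where the adjusted p is below 0.05). Each diamond lies above all circles of its list, the nearest being SNAI2 at 3.42 beside SCRT1 at 3.62.

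The neighbours of the 10 genes on the chromosomes were also followed, 5 measured genes on either side in the RefSeq gene order. Of 93 neighbours outside the set, 25 (26.9%) were called higher in L428-PAX5+MAT against L428+MAT, where 14.3% of all genes were. Called lower were 6, where 17.7% of all genes were. With each array left out in turn, 21 to 31 were higher and 5 to 7 lower. Their median change was 0.16, and the highest counts lay around C1QTNF9B and NSMF. Around C1QTNF9B 7 of 10 neighbours rose. They include FGF9, itself of the set, and C1QTNF9, which may share probes with C1QTNF9B. Around NSMF 6 of 10 rose. ABCA2 is on the same chromosome as NSMF with 28 measured genes between. Around it 0 of 10 were called by limma, and 0 had an unadjusted p below 0.05.

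Beside C1QTNF9B, ANKRD20A19P, a transcribed pseudogene, rose by 2.50 ± 0.18 (adjusted p = 1.06e-08), with means of 9.12 in L428-PAX5+MAT and 6.62 in L428+MAT. PARP4 rose by 1.0 ± 0.13 (adjusted p = 8.07e-06), and differed by -0.04 in L428-PAX5+M minus L428+M. PCOTH, a non-coding RNA also named C1QTNF9B-AS1, had a change of -1.004 ± 0.20 (adjusted p = 7.80e-04), opposite to C1QTNF9B. Beside NSMF, all 5 genes on one side rose, among them DPH7 (1.34 ± 0.17, adjusted p = 6.13e-06), which helps make diphthamide, and ARRDC1 (1.23 ± 0.39, adjusted p = 0.02), and on the other side NRARP, a Notch target, rose by 1.57 ± 0.37 (adjusted p = 0.00294).

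Around SCRT1 4 of 10 neighbours were higher and 2 lower. DGAT1, the triglyceride-making enzyme next to SCRT1, rose by 1.47 ± 0.24 (adjusted p = 1.16e-04), with a difference of 1.63 without the drugs. ADCK5 rose by 1.45, MROH1 by 1.37 and SCX, a tendon transcription factor, by 0.595, while HSF1, the heat shock factor, and VPS28, a sorting protein, fell (-0.596 and -0.98). REXO1L1P, a pseudogene of a repeated family next to CA2, rose by 3.06 ± 0.47 (adjusted p = 5.47e-05), with a difference of -0.52 in L428-PAX5+M minus L428+M. On either side of UTRN, STX11 and EPM2A fell (-1.38 ± 0.29, adjusted p = 0.00122, and -1.29 ± 0.14, adjusted p = 1.38e-06), opposite to UTRN.

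**Figure D5:**
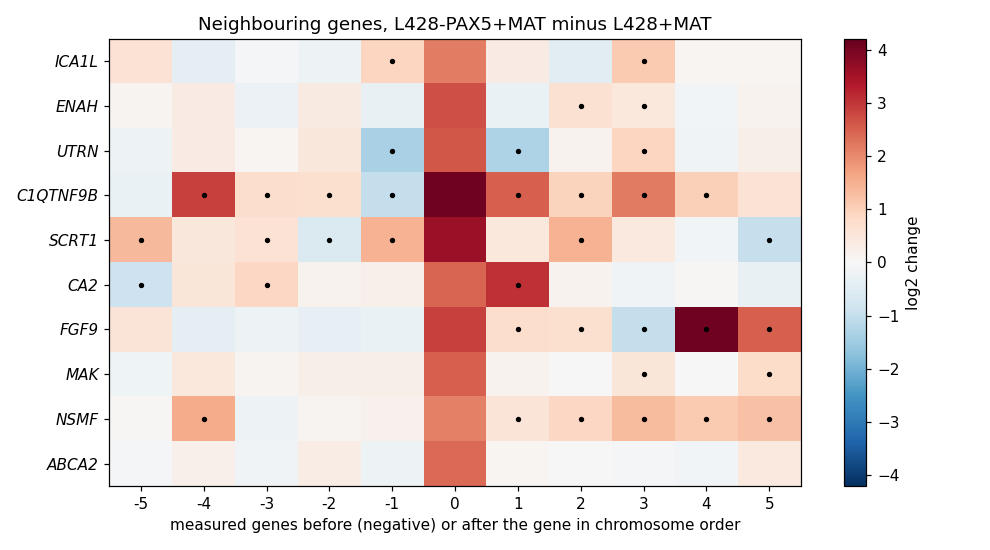
Log2 change in L428-PAX5+MAT minus L428+MAT (colour) of each of the 10 genes (position 0) and of the 5 measured genes before and after it in chromosome order (horizontal axis); dots mark neighbours with an adjusted p below 0.05. The row of C1QTNF9B holds 7 called rises and the row of ABCA2 none, and C1QTNF9B and FGF9 appear in each other's rows.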

How the data were processed

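The deposited values are log2 signals per probe set that the authors made with RMA and Partek, per the submitters' processing notes; versions and order of steps are not given in the sources used here, nor is the array's build. Of 33297 probe sets, 19460 had 1 gene symbol, 1754 several and 12083 were unlisted; 19429 single identifiers matched RefSeq GRCh38.p14. The brightest probe set on average stood for each of 769 genes with several, which left 18417 genes. RMA compresses dim signals, so large changes from a low level are understated, and no detection calls were used.

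Changes were fitted with limma 3.58.1 (R 4.3.3; lmFit and eBayes on the 18 arrays together; degrees of freedom 12 residual and 6.08 prior), tested on simulated data, with two-sided p-values adjusted by Benjamini-Hochberg over 18417 genes. Called means an adjusted p below 0.05; ± is the SE unless named otherwise. The number of arrays limits the precision. Tables and plots used Python 3.11.15, pandas 2.3.3, numpy 2.4.6 and matplotlib 3.10.9.

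The members, the lists of relatives and of markers, and the tests were chosen with earlier results of these data known. Named beside the 10 genes are PAX5, up to 3 called relatives in each direction per list, called neighbours, the genes most similar over the 18 arrays (of 7426 whose group means span at least 1 log2 unit) and those next to the set by size of rise.

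Replicate numbers come from the labels. Arrays of equal number deviated together (correlation of deviations from the group means over 0.1 in all 3 pairs) in 6 comparisons: 0.48 to 0.57 for L428-PAX5+M with L428+M, 0.27 to 0.35 for L428-PAX5+MAT with L428+MAT, 0.31 to 0.42 for L428-PAX5+MAT with L428-PAX5+M, 0.49 to 0.65 for L428+MAT with L428+M, 0.17 to 0.39 for L428-PAX5+MAT with Raji and 0.33 to 0.54 for Raji with Namalwa. In the other 3 at least 1 pair was below 0.1.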

Additional observations from a re-analysis of the deposited data

Results flagged for a closer look

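ICA1L changed with 5-aza-dC and TSA by -1.85 in L428-PAX5 and by 0.29 in L428. It is listed because all 3 L428-PAX5+MAT arrays were below all 3 L428-PAX5+M arrays, while all 3 L428+MAT arrays were above all 3 L428+M arrays; the difference between the lines was not tested. L428-PAX5+M and L428+M also served to choose the gene.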

How the results depend on the processing

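The rise of the 10 genes in L428-PAX5+MAT against L428+MAT kept its direction and call in the 14 other settings run. Over the counts and medians of the 9 comparisons, 336 values stayed close and 28 moved. Of the single genes, 1179 values kept direction and call, 26 lost a call, 29 gained one and 26 changed sign, each of the last uncalled. Counts of relatives and neighbours, added as an alternative after the data were seen, gave 243 values that stayed close and 65 that moved.

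A block on replicate number called 1592 genes in L428+MAT against L428+M (892 without it) and 1 of the 10 as higher in Raji against Namalwa (0 without). It changed no other call in the 6 comparisons whose numbers pair; where they do not, ENAH in L428-PAX5+MAT against Namalwa (adjusted p = 0.0422) and UTRN in L428+MAT against Raji (0.0326) gained one. Among relatives the UTRN, CA2 and ICA1L counts moved as given above.

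Array weights, whose estimation stopped before it converged, called 11176 genes in L428-PAX5+MAT against L428+MAT (5898 without), 9532 in L428-PAX5+MAT against L428-PAX5+M (6204), 2551 in L428+MAT against L428+M, 10657 in L428+MAT against Raji (6976) and 5747 in Raji against Namalwa (3545). The genes of the set called higher became 3 in L428-PAX5+MAT against L428-PAX5+M, 5 in L428+MAT against Raji and 2 in Raji against Namalwa, the higher neighbours 50 and the lower ones 16. In a fit of the 2 groups alone, 593 genes were called in L428+MAT against L428+M, and 1 of the 10 was higher in Raji against Namalwa. Quantile normalization made 3 genes higher in L428-PAX5+MAT against L428-PAX5+M, and, like subtraction of array medians, left 1 in L428+MAT against L428+M. The cause of these moves was not tested.

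Signs changed as follows. In L428-PAX5+MAT against L428-PAX5+M, NSMF was 0.16 with array weights and 0.15 with quantile normalization, where FGF9 was 0.038. In L428+MAT against L428+M, SCRT1 was -0.041 with array medians subtracted, -0.014 with quantile normalization and -0.079 as a mean of probe sets. With array medians subtracted, ENAH was -0.037 in L428+MAT against Raji and C1QTNF9B 0.0125 in Raji against Namalwa.

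With each array left out in turn, the higher genes numbered 0 to 1 in L428+MAT against L428+M and 0 to 1 in L428-PAX5+MAT against L428-PAX5+M, and the lower ones 1 to 2 in L428+MAT against Raji. In L428+MAT against L428+M the changes ran from -0.38 to 0.16 for FGF9, -0.20 to 0.16 for NSMF, -0.21 to 0.17 for SCRT1 and -0.21 to 0.11 for UTRN. In L428-PAX5+MAT against L428-PAX5+M they ran from -0.23 to 0.017 for FGF9 and -0.40 to 0.18 for NSMF. C1QTNF9B ran from -0.29 to 0.069 in Raji against Namalwa, and NSMF from -0.017 to 0.51 in L428-PAX5+MAT against Raji.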
